A study of Mus musculus with 2 samples.

Results

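The genes described here are 40 cell cycle genes, out of 28692 genes in the count tables of tdTomato-positive lung cells from Lepr-Cre;Rosa26-tdTomato mice. They were taken by symbol, and all 40 were present in both tables. By the phase they are known for they fall into 15 S-phase genes, 4 G1 and G1/S cyclins, 18 mitotic genes (a name used here for G2 and M phase together) and 3 genes that are broadly expressed and rise in dividing cells. Animals aged 8 to 10 weeks were given either saline or bleomycin, which breaks DNA and is widely used to model lung fibrosis. In these mice the Cre is under the control of the leptin receptor gene, Lepr, and switches on the tdTomato reporter for good, so the label marks present or past Lepr activity and not present Lepr expression. Live tdTomato-positive cells were sorted from lung and captured in droplets, with 1 library per treatment. How many mice were pooled, the dose and the time of collection are not stated in the labels.

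A dividing cell first commits to replication in G1, where D-type cyclins with CDK4 or CDK6 and then E-type cyclins with CDK2 inactivate the retinoblastoma proteins and free the E2F factors. E2F then drives the genes of S phase, which license and copy the DNA and make its building blocks. Later a set of genes for chromosome condensation, spindle assembly and mitotic exit is switched on through the MuvB complex with B-MYB and FOXM1, while in resting cells the same complex with other partners keeps them silent. Adult lung fibroblasts divide rarely at rest, and fibroblasts of an injured lung are known to enter the cycle.

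The S-phase and mitotic members were also compared by the short DNA words in front of their genes, and 4 promoters are shown as examples. RefSeq promoters of the GRCm38.p6 build (250 bases before to 50 after the transcription start) were at hand for 31 of the 40 members. They were searched on both strands for the E2F words TTCCCGC or TTCGCGC or TTGCCGC or TTGGCGC, for the cell cycle homology region or CHR (TTTGAA or TTCGAA) and for CCAAT. E2F words on opposite strands can share bases, and such a match shows as 1 longer run of capitals. The printed bases run 5′ to 3′ toward the gene, hold the matched words in capitals (a word on the other strand appears as its reverse complement) and leave out bases inside the gene's annotated transcripts. Rrm2 (chr12:24708004-24708240, plus strand) and Ccnb2 (chr9:70421555-70421804, minus strand) are among the members with a match that had the highest levels in bleomycin fibroblasts. Pcna, Slbp, Cenpa and Ube2c, also picked that way, are not printed: outside their transcripts Pcna and Cenpa held none of the words, Slbp 3 CCAAT words and Ube2c 6, and none of these stretches held an E2F word or a CHR. In their whole windows all 4 held CCAAT, and Cenpa and Ube2c also a CHR. Mcm6 (chr1:128359706-128359955, minus strand) and Cdk1 (chr10:69352939-69353162, minus strand) were chosen after their matches were seen.
Rrm2: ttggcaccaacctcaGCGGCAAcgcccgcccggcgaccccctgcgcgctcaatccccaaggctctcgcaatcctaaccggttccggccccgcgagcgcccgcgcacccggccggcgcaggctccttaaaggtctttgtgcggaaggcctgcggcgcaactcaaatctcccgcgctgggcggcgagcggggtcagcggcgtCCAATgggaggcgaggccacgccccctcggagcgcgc
Mcm6: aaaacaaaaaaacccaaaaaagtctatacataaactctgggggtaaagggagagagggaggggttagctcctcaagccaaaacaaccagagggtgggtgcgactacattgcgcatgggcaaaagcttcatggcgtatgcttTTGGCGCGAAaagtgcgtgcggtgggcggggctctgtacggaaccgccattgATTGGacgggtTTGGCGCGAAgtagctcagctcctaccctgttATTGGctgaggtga
Ccnb2: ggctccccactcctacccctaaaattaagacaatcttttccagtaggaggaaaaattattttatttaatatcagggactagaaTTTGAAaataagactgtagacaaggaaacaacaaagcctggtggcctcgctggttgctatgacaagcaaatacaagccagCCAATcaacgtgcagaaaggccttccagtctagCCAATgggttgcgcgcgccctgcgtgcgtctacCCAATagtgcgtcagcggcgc
Cdk1: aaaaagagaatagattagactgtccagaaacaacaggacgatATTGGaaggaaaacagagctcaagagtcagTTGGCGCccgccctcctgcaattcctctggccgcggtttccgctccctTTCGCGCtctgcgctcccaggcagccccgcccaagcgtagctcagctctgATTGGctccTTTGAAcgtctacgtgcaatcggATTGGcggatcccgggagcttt
The Mcm6 stretch holds 4 E2F matches in 2 overlapping pairs and no CHR, whereas the Ccnb2 stretch holds 1 CHR and 3 CCAAT words and no E2F word. The Cdk1 stretch holds all 3 kinds of word, with 2 E2F matches, 1 CHR and 3 CCAAT words. Over the whole windows an E2F word stood in 8 of 14 promoters of S-phase members (57.1%), 3 of 15 promoters of mitotic members and 9.57% of all 32851 RefSeq promoters. A CHR stood in 2 of 14 S-phase promoters (14.3%), 11 of 15 mitotic promoters (73.3%) and 19.2% of all. CCAAT stood in 71.4%, 86.7% and 37.4% of the same sets. All 11 mitotic promoters with a CHR also held a CCAAT word. These matches describe letters in a window and are not measured binding sites.

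The saline library held 37570380 UMIs (unique molecular identifiers, each standing for 1 captured transcript) over 5455 barcodes and the bleomycin library 61537182 over 4473. After filters 5194 and 4308 cells of the saline and bleomycin library were kept, with medians of 6305 and 12266 UMIs, and 33 barcode sequences occurred in both libraries. Bleomycin cells were deeper, so for shares of cells each cell was thinned at random to 2000 UMIs. Clusters were built without the members, further listed S-phase and mitotic genes and histone genes, while other cell cycle genes were not removed. They were named by marker genes, so a name stands for cells like that type. Fibroblasts numbered 3558 and 3512, and the libraries filled different fibroblast clusters: mainly 1, 2, 4 and 8 in saline and 0, 3, 6, 9, 12 and 13 in bleomycin. Lepr itself was at 44.1 CPM in saline and 3.52 CPM in bleomycin fibroblasts, where CPM is UMIs of a gene per 1000000 UMIs of the class. With 1 library per treatment there is no test and no spread between animals, and the exact 95% intervals in square brackets cover counting error only. A gene is called higher or lower only by size: 50 UMIs or more in the library where it is higher, and summed levels that differ by 2-fold or more.

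Fibroblasts of the bleomycin library held many more cells in cycle than those of the saline library. A cell counts as mitotic here with at least 3 UMIs summed over the 18 mitotic members, and as S phase with at least 4 over the 15 S-phase members, after thinning. Mitotic cells were 5 of 3558 saline fibroblasts, 0.141% [0.0456 to 0.328], and 182 of 3512 bleomycin fibroblasts, 5.18% [4.47 to 5.97]. S-phase cells were 5 saline fibroblasts, 0.141% [0.0456 to 0.328], and 62 bleomycin fibroblasts, 1.77% [1.36 to 2.26]. The intervals of the libraries do not overlap for either sum. Without thinning the mitotic shares were 0.478% and 12.4%, and the S-phase shares 5.85% and 32.8%, at median depths of 6835 and 13584 UMIs per fibroblast.

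**Figure D1:**
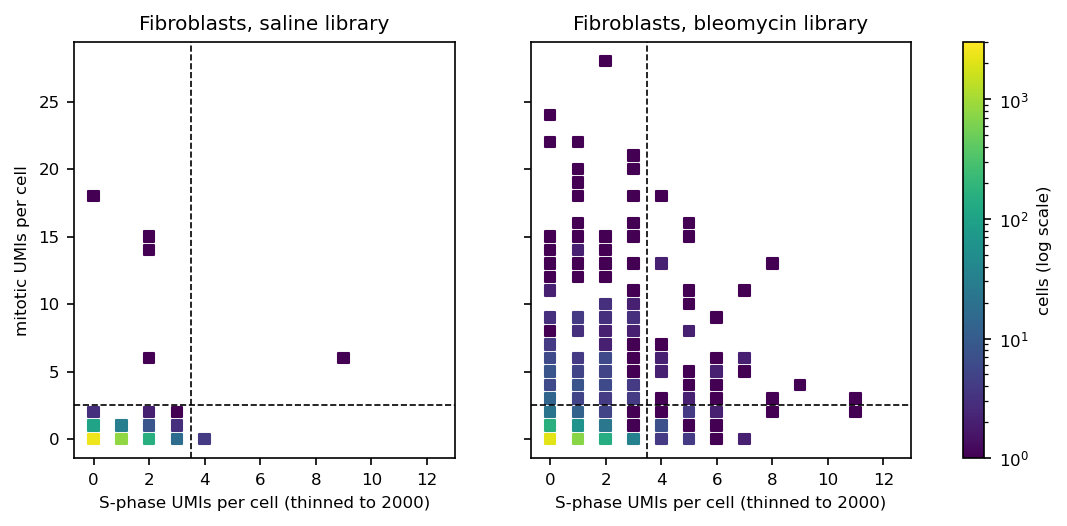
Each square is a pair of sums per fibroblast, with S-phase UMIs on the x axis and mitotic UMIs on the y axis after thinning to 2000 UMIs, and its colour gives the number of cells on a log scale, for the saline and bleomycin library. Dashed lines mark the minimum of 4 S-phase and 3 mitotic UMIs, and 9 saline and 211 bleomycin fibroblasts lie past at least 1 of them.

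Cells past at least 1 of the minimums, called in cycle below, were 9 saline (0.253% [0.116 to 0.48]) and 211 bleomycin fibroblasts (6.01% [5.24 to 6.85]). Of the 211, 149 passed the mitotic minimum alone, 29 the S-phase minimum alone and 33 both. Such cells are a range of a score and not a type, and some lie close to its edge. In the bleomycin library 49 fibroblasts had exactly 2 mitotic UMIs and 32 exactly 3, and 60 had exactly 3 S-phase UMIs and 21 exactly 4. Most bleomycin fibroblasts, 3027 of 3512, had 0 mitotic UMIs after thinning, and the highest sum was 28. Fibroblasts made up 75.6% of the 279 bleomycin cells in cycle but 14.8% of the 61 saline cells in cycle, of which 65.6% were alveolar macrophages. Among all cells, fibroblasts were 3512 of 4308 in bleomycin and 3558 of 5194 in saline. The share in cycle over all cells was 6.48% in bleomycin and 1.17% in saline.

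All 18 mitotic members were higher in bleomycin than in saline fibroblasts by the size rule, with ratios between 5.22 and 26.4. A summed level does not by itself separate more expressing cells from more RNA per cell, and the shares of cells above are the measure per cell. Of all 12093 genes with enough UMIs, 9.77% were higher by the same rule and 10.3% lower. The median log2 ratio, taken with 1 CPM added to both levels, was 2.54 over the mitotic members and -0.03 over all genes. For 11 of the 18 the saline library had under 50 UMIs, so their low level is known only roughly. The counting interval of the ratio lay above 2 for each of the 18. The share of all genes with such an interval is not given here.

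The cyclins and their kinase showed the gain plainly. Cdk1, the kinase that drives entry into mitosis, was at 2.02 [1.51 to 2.65] CPM in saline and 32 [30.5 to 33.6] in bleomycin fibroblasts, a ratio of 15.8 [12 to 21.3]. Ccna2, the cyclin of S and G2 phase, went from 1.17 to 21, a ratio of 18 [12.5 to 26.8]. Ccnb1, a partner of CDK1 at mitotic entry, went from 1.01 to 16.8, a ratio of 16.6 [11.3 to 25.6]. Its relative Ccnb2 started higher, at 6.34, and reached 39.8, a ratio of 6.28 [5.35 to 7.41].

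Regulators of mitotic exit and the mitotic kinases followed. Ube2c, a ubiquitin-conjugating enzyme that works with the anaphase-promoting complex, went from 3.97 to 46.1 CPM, a ratio of 11.6 [9.52 to 14.3]. Cdc20, an activator of the same complex, went from 2.3 to 21.8. Birc5, encoding survivin of the chromosomal passenger complex, went from 2.26 to 38.5. With 1 CPM added to both levels its log2 ratio, 3.6, was the largest of the 40 members. Aurkb, the kinase of the passenger complex, had 9 UMIs in saline and 469 in bleomycin fibroblasts, a ratio of 25.7 [13.4 to 56.7]. Aurka, a kinase of the spindle poles, went from 1.79 to 9.44 and Plk1, polo-like kinase 1, from 0.584 to 7.25. Bub1, of the spindle checkpoint, had 2 UMIs in saline and 107 in bleomycin fibroblasts, a ratio of 26.4 with a wide interval, [7.14 to 221]. Without the added 1 CPM the ratios of Aurkb and Bub1, from few saline UMIs, were above that of Birc5.

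Genes of the chromosomes and the spindle were higher as well. Top2a, which untangles DNA, was at 2.1 CPM in saline and 18.3 in bleomycin fibroblasts. Mki67, which coats mitotic chromosomes and is the classic proliferation marker, had 19 UMIs in saline and 466 in bleomycin fibroblasts. Cenpa, the histone variant of the centromere, went from 9.26 to 48.4, the smallest ratio of the group at 5.22 [4.57 to 5.99]. The kinetochore genes Cenpe and Cenpf went from 0.311 to 6.71 and from 1.36 to 11.1. The spindle genes Nusap1 and Tpx2 went from 1.36 to 11 and from 1.67 to 12.3.

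**Figure D2:**
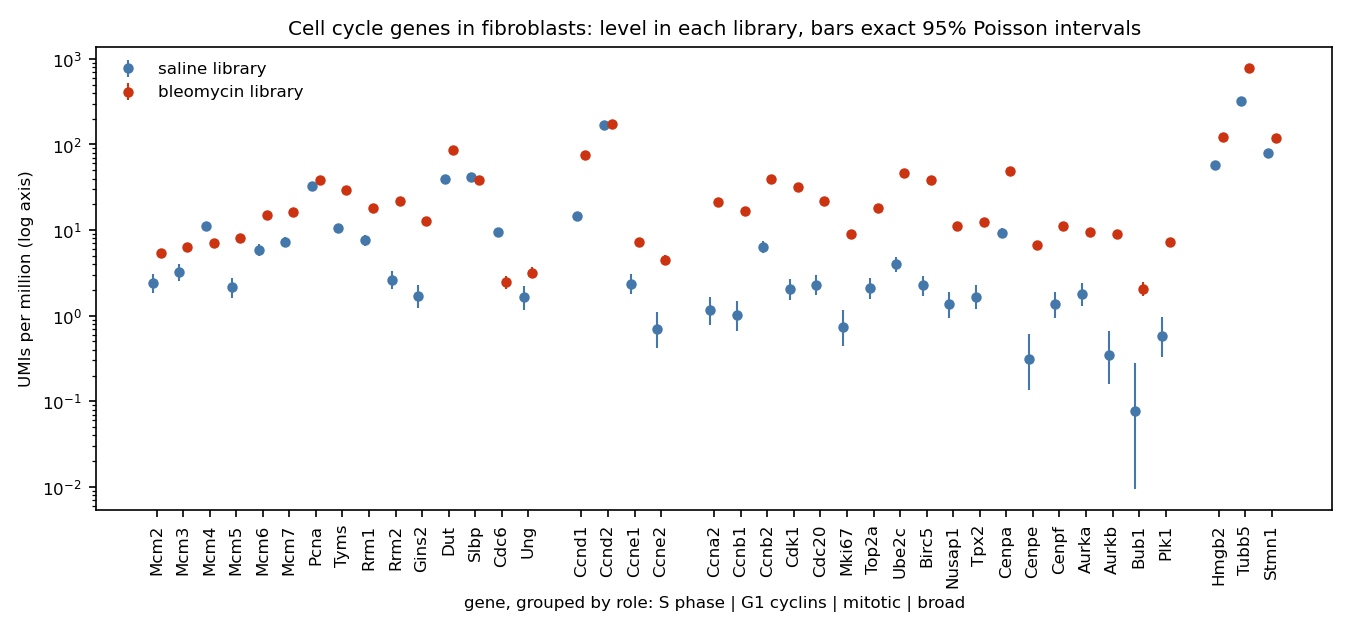
Level of each of the 40 genes in fibroblasts as UMIs per 1000000 on a log axis, with saline in blue and bleomycin in red, bars giving exact 95% Poisson intervals, and genes grouped by role. All 18 mitotic genes lie higher in the bleomycin library, while the S-phase genes are mixed and Cdc6 (9.46 and 2.48) and Mcm4 (11.1 and 7.05) lie lower.

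The S-phase members were less uniform. Of the 15, 9 were higher, 1 was lower and 5 were neither by the size rule, with a median log2 ratio of 1.05. Of all 12093 genes, 9.77% were higher and 10.3% lower. The gene with the largest S-phase ratio was Rrm2, the regulated subunit of ribonucleotide reductase, at 2.65 CPM in saline and 21.9 in bleomycin fibroblasts. Its partner Rrm1 was at 7.63 and 18. Gins2, of the replicative helicase, went from 1.71 to 12.8, a ratio of 7.49 [5.52 to 10.4]. Tyms, thymidylate synthase, went from 10.5 to 29.1, and Dut, the dUTPase, from 39.8 to 85.4.

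The 6 subunits of the MCM helicase, which is loaded in G1 and unwinds DNA in S phase, did not all pass the rule. Mcm5 went from 2.14 to 8.04 CPM, Mcm6 from 5.88 to 15, Mcm7 from 7.28 to 16.2 and Mcm2 from 2.41 to 5.38, all higher. Mcm3 was at 3.23 and 6.27, a ratio of 1.94 and thus just short of it. Mcm4 was at 11.1 [9.8 to 12.4] in saline and 7.05 [6.35 to 7.81] in bleomycin fibroblasts, which does not pass the rule.

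Cdc6, which loads the MCM helicase onto origins and is a textbook E2F target, was the 1 lower member, against 10.3% of all genes. It was at 9.46 [8.3 to 10.7] CPM in saline fibroblasts (243 UMIs) and 2.48 [2.07 to 2.95] in bleomycin fibroblasts (129 UMIs), a log2 ratio of -1.59. The saline level was spread over the fibroblast clusters, from 5.21 to 11.7 in the 6 clusters with at least 100 saline cells. In the 7 bleomycin clusters of that size it ran from 0.932 to 4.76. No exon of Cdc6 or Mcm4 overlaps another gene in GENCODE, while 13 of the 40 members have such an overlap on either strand, and the labels do not state how the counting treated strand.

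The remaining S-phase members did not pass the rule. Pcna, the sliding clamp of DNA polymerases, was at 32.4 and 38.8 CPM, and Slbp, the stem-loop binding protein of histone mRNA, at 41.4 and 38.1. Ung, the uracil-DNA glycosylase, was at 1.63 and 3.19, a ratio of 1.95. Pcna is also read in the other classes: its bleomycin fibroblast level was 0.825 times the lowest level of any other class of at least 100 cells.

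Among the G1 cyclins, Ccnd1 was far higher in the bleomycin library and Ccnd2 was not. Ccnd1, cyclin D1, was at 14.5 [13.1 to 16.1] CPM in saline and 75.5 [73.2 to 77.9] in bleomycin fibroblasts, a log2 ratio of 2.3. Ccnd2, cyclin D2, was at 170 [165 to 175] and 173 [169.9 to 177], a ratio of 1.02 [0.984 to 1.06]. Ccne1 and Ccne2, the E cyclins of the G1/S step, were lowly counted and higher, from 2.37 to 7.32 and from 0.70 to 4.46. Of the 3 broad members, Tubb5, a beta-tubulin, went from 326 to 774 and Hmgb2, a chromatin protein, from 57.4 to 122, both higher by the rule. Stmn1, which destabilises microtubules, was at 79 and 121, a ratio of 1.53 that is neither.

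Most of the bleomycin transcripts of the mitotic members lay in the 211 cells in cycle; the same genes chose those cells, so this is a description. The share ran from 65.8% for Ccnb2 to 92.3% for Plk1, was 14.2% for Ccnd1 and 3.67% for Ccnd2. With cells in cycle left out (3549 saline and 3301 bleomycin fibroblasts) the summed level of the 18 mitotic members was 23.8 [21.9 to 25.8] CPM in saline and 69.1 [66.7 to 71.5] in bleomycin fibroblasts, against 38.7 and 361 with them. In saline ciliated cells, which do not divide, the same sum was 23.6 [14.2 to 36.9]. Other classes without their cells in cycle also differed between saline and bleomycin. Alveolar macrophages were at 37 and 53.7, endothelial cells at 37.7 and 53.9 and pericytes at 21.4 and 82. Smooth muscle cells, at 22.3 and 13.3, and immune cluster 17, at 82.5 and 54.4, went the other way. In the remaining fibroblasts 11 mitotic members were higher by the rule, 3 were neither and 4 had under 50 UMIs, where 8.33% of 11920 genes were higher and 10.1% lower. Cdk1 was at 0.703 and 6.99 CPM and Birc5 at 1.21 and 7.04 there. The part of cycling cells with few mitotic UMIs, and of free RNA, in these levels was not tested.

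Ccnd1 depended little on the cells in cycle. Without them it was at 14.6 and 71.5 CPM in the saline and bleomycin library. By cluster it was at 7.91 (cluster 12), 16.6 (cluster 7), 128 (cluster 6) and 128 (cluster 13) in the bleomycin library, and at 5.49 (cluster 1) and 52.6 (cluster 8) in the saline library. Of the S-phase members, without the cells in cycle, 2 were higher (Rrm2 and Gins2), 2 lower (Cdc6 and Mcm4) and 11 neither, shares to be read against the same 8.33% and 10.1% of all genes. Mcm4 was then at 11 and 5.3 CPM, and Cdc6 at 9.26 and 1.84. Pcna was at 31.9 and 29.2.

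Within bleomycin fibroblasts the members separated by phase as their groups are named. For each member, cells were called mitotic or S phase only from the other members, so that its own UMIs did not choose them. Its group partners still did, so for S-phase and mitotic members the direction follows largely from the sorting and is a description. This gave 155 to 182 mitotic cells, 17 to 36 S-phase-only cells and the rest with neither. All 18 mitotic members had a higher level in mitotic than in S-phase-only cells, and for 17 the ratio was at least 2. Among the 15 S-phase members 1, Rrm1, was higher in mitotic cells, by a ratio of 1.27, and 8 were at least 2-fold higher in S-phase-only cells. These cells come from 1 library, so no test was made.

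Plk1 had the sharpest contrast, at 82.1 CPM in mitotic, 3.19 (2 UMIs) in S-phase-only and 0.615 in other fibroblasts. Ube2c was at 529 in mitotic, 41.2 in S-phase-only and 5.5 in other fibroblasts, and Ccnb1 at 184 in mitotic, 16 in S-phase-only and 2.18 in other fibroblasts. Cdk1 was the 1 mitotic member short of 2-fold, at 300.3 in mitotic and 153 in S-phase-only cells against 7.29 in the others. Hmgb2 was at 709 in mitotic, 329 in S-phase-only and 66.9 in other fibroblasts. Stmn1 was at 769 in mitotic, 345 in S-phase-only and 59.6 in other fibroblasts. Tubb5 was at 1992 in mitotic, 1405 in S-phase-only and 657 in other fibroblasts, so the broad members were highest in mitotic cells as well.

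In the other direction, Ung was at 4.03 CPM in mitotic cells, 53.8 [36 to 77.3] in S-phase-only cells and 2.54 in the others. Cdc6, low in bleomycin fibroblasts as a whole, was at 4.27 in mitotic, 36.2 [22.7 to 54.7] in S-phase-only and 1.89 in other cells. Pcna was at 112 in mitotic, 314 in S-phase-only and 30.2 in other fibroblasts, and all 6 Mcm genes were higher in S-phase-only than in mitotic cells. Tyms (134 and 169), Rrm2 (159 and 177) and Dut (232 and 283) differed less between mitotic and S-phase-only cells. The cyclins parted. Ccne2 was at 19.9 in mitotic, 73.4 in S-phase-only (46 UMIs in 29 cells) and 2.16 in other fibroblasts. Cells in G1 were not set apart, so its peak cannot be placed. Ccnd1 was at 115 in mitotic, 118 in S-phase-only and 71.5 in other fibroblasts. Ccnd2 was lower in mitotic cells, at 52.9, than in S-phase-only cells, at 172, or in the others, at 184. By bleomycin cluster Ccnd2 ran from 76.5 (cluster 13) to 325 (cluster 3). Cluster 13 held 103 of the 182 mitotic cells but 4 of the 29 S-phase-only cells, by all members. The part of the clusters in the contrasts between phases was not tested.

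**Figure D3:**
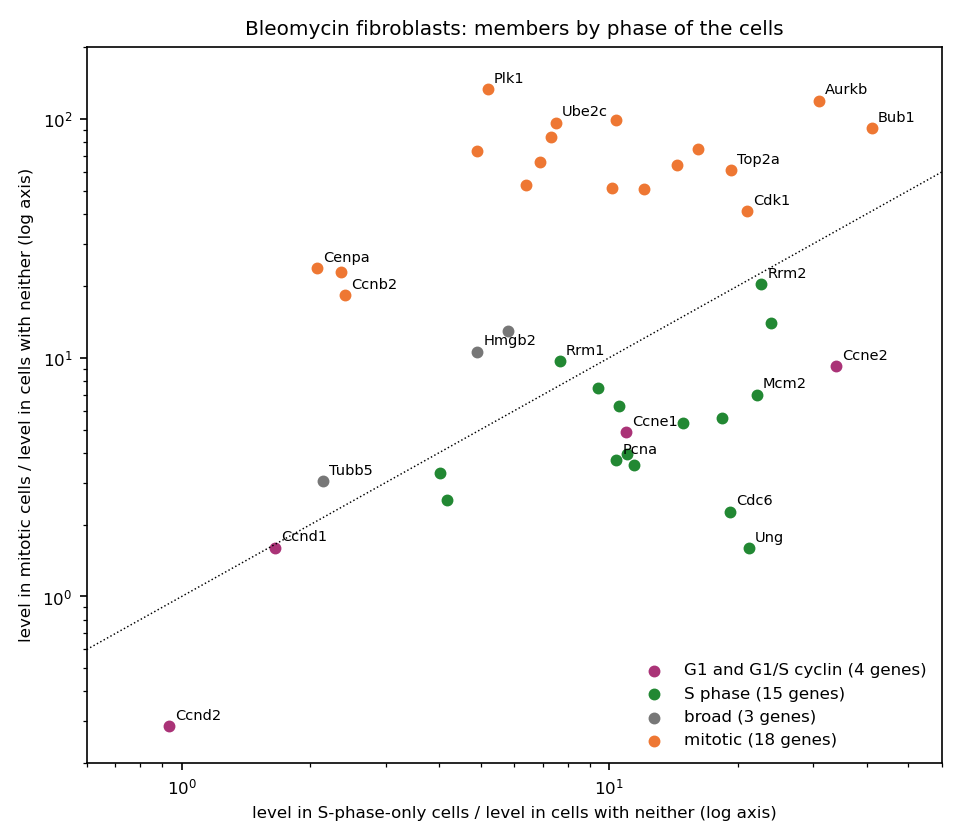
For each of the 40 genes, level in mitotic cells and in S-phase-only cells of the bleomycin fibroblasts, both divided by the level in cells with neither, on log axes, with a line marking equality. All 18 mitotic genes lie on the mitotic side of the line and 14 of the 15 S-phase genes on the other, while Ccnd2 has the lowest ratio in mitotic cells. The cells were sorted by the other members of the S-phase and mitotic groups, so the sides of these genes are a description. Mitotic and S-phase-only cells lay in different mixes of clusters, and Ccnd2 also differed between clusters.

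The cells in cycle were not spread evenly over the fibroblast clusters. Of the 211, 107 (50.7%) were in cluster 13 and 79 (37.4%) in cluster 9, both named fibrotic fibroblasts from marker genes. Cluster 13 was still led by Ccnb1, Ccna2 and Ube2c within the fibroblasts although the listed cell cycle genes were kept out of the clustering. Cell cycle genes outside the lists, such as Ska1 and Cep55, were not kept out. The size and the share of cluster 13 are thus no separate result. The part of such unlisted genes in clusters 13 and 9 was not tested. In cluster 9, led by Thbs4, Igfbp2 and Scx, 66 of 461 cells were mitotic, 14.3% [11.2 to 17.9], and 30 were in S phase, 6.51% [4.43 to 9.16]. In cluster 6, the other fibrotic cluster, led by Anxa8 and Msln, 8 of 595 cells were mitotic, 1.34% [0.582 to 2.63].

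The other bleomycin clusters held few mitotic cells: 5 of 1045 in cluster 0, 0 of 706 in cluster 3, 0 of 191 in cluster 7 and 0 of 277 in cluster 12. By 3 counts of their cells, the 0 in clusters 3, 7 and 12 allows shares of up to 0.425%, 1.57% and 1.08%, and the exact upper bounds are 0.521%, 1.91% and 1.32%. Cluster 3, named alveolar fibroblasts, still had 5 S-phase cells (0.708%). The summed mitotic level followed, at 2091 CPM in cluster 13, 776 in cluster 9, 60.7 in cluster 6 and 38.4 in cluster 12. Median depth differed too, with 21201 UMIs per cell in cluster 13, 17248 in cluster 9, 17490 in cluster 6 and 8721 in cluster 12. Cluster 6 held 12 cells in cycle and cluster 9 held 79. The part of depth in these counts was not tested.

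Over all clusters, bleomycin fibroblasts in cycle had lower levels of genes of resting fibroblasts than the others, but none of those genes was called lower within cluster 9. Across all 10576 genes with enough UMIs, 4.63% were higher in the 211 cells and 10.4% lower. The rule used this contrast for the members, so for them nothing is read from it: 37 of 39 measured members were higher and 1, Ccnd2, lower. Of 26 fibroblast genes with enough UMIs that played no part in choosing the cells, 1 was higher, 10 were lower and 15 were neither. The cells in cycle were deeper, with a median of 21478 against 13267 UMIs, and their median doublet score was 0.0368 against 0.0264. The counts were 1 higher and 10 lower as well when the other cells were held to the UMI range of those in cycle.

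The cells in cycle and the others came from different clusters: 107 and 79 of the 211 lay in clusters 13 and 9, while clusters 0, 3, 7 and 12 gave few. The contrast was therefore repeated inside cluster 9, 79 cells in cycle against 382, an alternative chosen after seeing the data. There 4.79% of 6695 genes were higher in cycle and 3.41% lower. Of the fibroblast genes 2 were higher, Inmt (149 in cycle and 48.9 not in cycle, in CPM) and Ces1d (28.8 in cycle and 7.87 not in cycle), and 2 lower, Postn (253 in cycle and 507 not in cycle) and Il6 (22.2 in cycle and 46.5 not in cycle). Of the 10 genes that were lower over all clusters 0 were lower within cluster 9, where Slc7a10 and Pi16 had under 50 UMIs. The values in the next paragraphs are over all clusters and thus carry the difference in clusters.

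Matrix and contractile genes of fibrosis were not called lower over all clusters. Acta2, smooth muscle actin and a mark of myofibroblasts, was at 2901 [2853 to 2949] CPM in cells in cycle and 1267 [1257 to 1277] in the others, a log2 ratio of 1.19, while within cluster 9 it was at 2689 in cycle and 2495 not in cycle, which does not pass the rule. Postn, encoding periostin, was at 784 and 403 and Cthrc1, a mark of collagen-rich fibrotic fibroblasts, at 663 and 392, both short of the rule. Col1a1 was at 5936 and 5401, Spp1 at 5861 and 4859 and Timp1 at 1849.5 and 1077. Fst, Ptn, Grem1, Tagln, S100a4, Lgals3, Col3a1, Pdgfrb, Il6 and Egr1 also had log2 ratios between -0.97 and 0.50. Within cluster 9 several directions turned. Postn was called lower there, at 253 in cycle and 507 not in cycle. Cthrc1 (357 in cycle and 705 not), Col1a1 (4728 and 6563.5) and Spp1 (11494 and 16274) were below the others without passing the rule. Timp1, at 3054 in cycle and 2775 not in cycle, kept its direction.

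Genes of resting alveolar and adventitial fibroblasts were lower in cycle over all clusters. Inmt, a methyltransferase of alveolar fibroblasts, was at 85.3 CPM in cells in cycle and 695 in the others, a log2 ratio of -3.01. Tcf21, a transcription factor of the same cells, was at 27.7 and 109.9, Npnt at 86.7 and 224 and Ces1d at 12.8 and 74.5. The adventitial genes Pi16 and Ccl11 were at 4.96 and 21.5 and at 5.78 and 30.9. Pdgfra, the receptor that marks most lung fibroblasts, was at 116 and 267, a log2 ratio of -1.19, and within cluster 9 at 137 in cycle and 153 not in cycle. Slc7a10, Fosb and C3 were lower as well. Lepr had 18 UMIs in cells in cycle, with 3.72 [2.2 to 5.87] against 3.5 [2.98 to 4.07] CPM in the others.

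**Figure D4:**
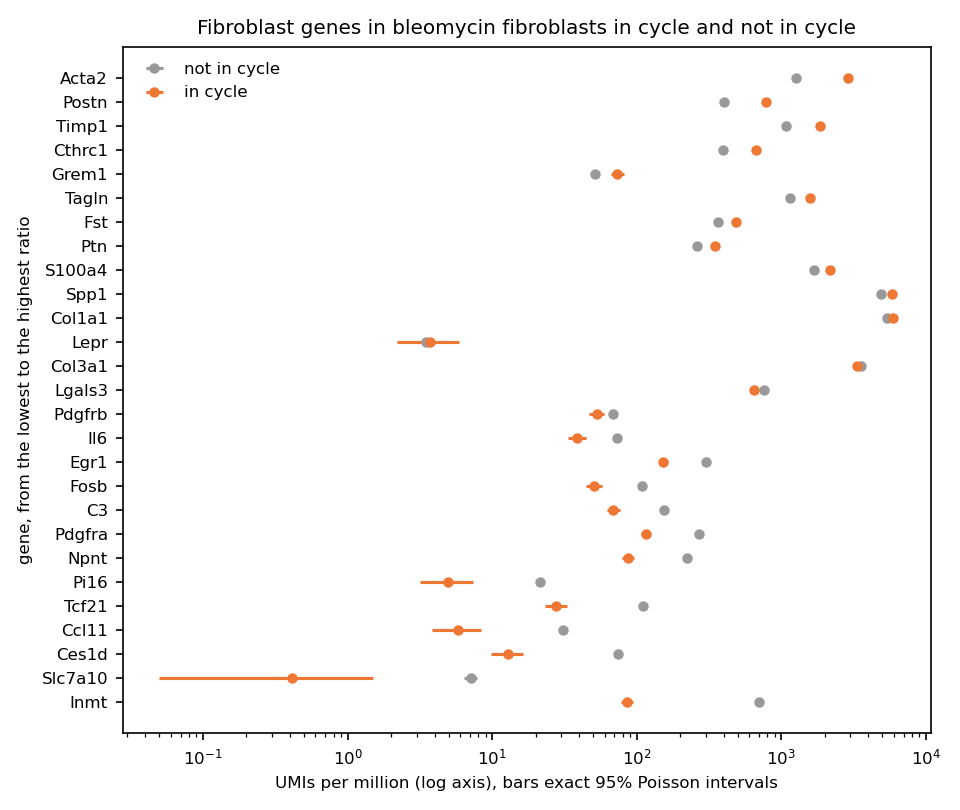
Level of fibroblast genes in the bleomycin fibroblasts in cycle and not in cycle over all clusters, as UMIs per 1000000 on a log axis with exact 95% Poisson intervals. Acta2 is higher in cycle, at 2901 and 1267, and Inmt lower, at 85.3 and 695, but within cluster 9 Inmt was at 149 in cycle and 48.9 not in cycle.

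The brakes of the cycle differed among themselves. Between libraries, Cdkn2a, the locus of p16 and ARF, went from 0.311 to 3.65 CPM in fibroblasts and Cdkn2b, p15, from 1.75 to 11.4, the 2 of 7 CDK inhibitors that were higher. Cdkn1a, p21 and a target of p53, was at 357 and 348. The others, Cdkn1b (16.7 and 16), Cdkn1c (96.5 and 54.8), Cdkn2c (107 and 116) and Cdkn2d (54.5 and 48.8), were neither. Of all 12093 genes in this comparison, 9.77% were higher and 10.3% lower. Inside the bleomycin library, over all clusters, Cdkn1a was lower in cells in cycle, at 162 [151 to 174] against 367 [361 to 372]. Cdkn2d, p19, was higher there, at 143 against 39.1, and so was Cdkn2a, at 12 against 2.8.

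Kinases and transcription factors of the cycle were compared between libraries in the same way, against 9.77% of all genes higher and 10.3% lower. Cdk4 was at 94.4 and 167 CPM, Cdk6 at 29.3 and 46.8, Cdk2 at 6.77 and 12 and Ccnd3 at 138 and 123, so 0 of 4 passed the rule. Of 17 measured retinoblastoma family, E2F and MuvB genes 5 were higher and 0 lower: Tfdp2 (10 and 27.3), Foxm1 (1.21 and 6.09), Mybl2 (0.35 and 2.13), E2f7 (0.545 and 1.46) and E2f8 (0.233 and 1.46). Rb1 (9.77 and 8.0), Rbl1 (2.06 and 3.0) and Rbl2 (20.4 and 12.1), the retinoblastoma family, were neither. E2f1 (9.26 and 11.1), E2f3 (8.68 and 7.15), E2f4 (36.5 and 33), E2f5 (12.7 and 13) and E2f6 (8.91 and 7.77) were neither too. The same held for the MuvB genes Lin9 (2.02 and 2.21), Lin37 (18.1 and 20.7), Lin52 (7.63 and 6.4) and Lin54 (7.47 and 7.32). In bleomycin cells in cycle, over all clusters, Foxm1 was at 37.6 against 2.86 in the others and Mybl2, which encodes B-MYB, at 15.5 against 0.763, while Tfdp2 was at 21.7 against 27.9.

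Further genes of the same phases, listed apart from the 40, were compared in the same way. Their counts are to be read against 9.77% of all genes higher and 10.3% lower. Of 44 other mitotic genes 36 were higher and 0 lower, with Cdca3 going from 1.98 to 32.4 CPM, Racgap1 from 1.87 to 17.7, Cks2 from 9.11 to 61.6 and Pbk from 0.934 to 10.9. Of 31 measured other S-phase genes 13 were higher and 0 lower, among them Tk1, thymidine kinase, from 1.28 to 23.5, Chaf1b from 0.545 to 6.69 and Gmnn, which blocks re-replication, from 2.65 to 13.3. Of 10 measured replication histone genes 5 were higher and 0 lower. Hist1h2ap went from 1.95 to 52.7, and inside the bleomycin library it was at 513 in fibroblasts in cycle and 5.49 in the others. Replication histones form a family of near-identical copies, so counts may be split between them.

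Alveolar macrophages were in cycle in both libraries at shares whose intervals overlap. Mitotic cells were 28 of 639 in saline, 4.38% [2.93 to 6.27], and 18 of 337 in bleomycin, 5.34% [3.2 to 8.31]. S-phase cells were 3.91% [2.55 to 5.72] and 4.45% [2.51 to 7.24]. The order of the libraries is not stable across settings. With cells thinned to 4000 UMIs both shares were higher in saline (7.84% and 6.53% mitotic and 10.9% and 6.23% S-phase cells in saline and bleomycin). Shallower cells were left out in that setting, which left 357 of 639 saline and all 337 bleomycin cells, so unlike sets are compared. Without thinning the mitotic shares were 5.79% and 8.01% at median depths of 4167 and 6743 UMIs. Cluster 5 held 633 of the saline cells of this class and cluster 10 held 328 of the bleomycin cells. Of 18 members with enough UMIs 0 were higher and 2 lower, where 2.90% of 5520 genes were higher and 6.05% lower. Ccnd2 was at 472 [447 to 497] CPM in saline and 163 [147 to 179.5] in bleomycin macrophages. Rrm2 was at 26.7 [21.1 to 33.3] and 12.8 [8.72 to 18.2], against 2.65 and 21.9 in fibroblasts. Top2a, at 37.2 and 27.3, Mki67, at 20.5 and 23.6, and Birc5, at 28.7 and 37.2, were not called.

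Lymphatic endothelial cells of the bleomycin library had the highest mitotic share of any class with at least 19 cells. Of 71 cells 21 were mitotic, 29.6% [19.3 to 41.6], and 8 were in S phase, 11.3% [4.99 to 21]. The saline library had 19 such cells and 0 were mitotic, which by 3 counts allows a share of up to 15.8% (exact upper bound 17.6%), and their median depth was 3694 against 10464 UMIs. The class was led by Ccl21a, Nts and Mmrn1 and not by cell cycle genes. Ube2c had 1 UMI in saline and 396 in bleomycin lymphatic cells, a ratio of 32.6 [5.82 to 1292]. Birc5 had 0 and 188 UMIs, which makes it at least 5.16-fold higher with 3 counts as the saline floor, and Cdk1 had 0 and 152, at least 4.17-fold higher. Endothelial cluster 18, led by Selp, Tmem252, Grrp1 and Vwf, had 1 mitotic cell of 60 in saline and 3 of 96 in bleomycin.

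Over all cells named endothelial (105 saline, 19 of them lymphatic, and 185 bleomycin, 71 of them lymphatic) 27 members had enough UMIs, of which 19 were higher and 1 lower. Of 4066 genes 12.0% were higher and 7.35% lower. Unnamed cluster 22, with 49 saline cells and 1 bleomycin cell, is not among them. It had endothelial genes such as Cd93, Calcrl, Cldn5 and Cdh5 among its leading genes. The mix of endothelial kinds differs between the libraries, and its part in these counts was not tested. Ccnd2 was the lower member here too, at 301 and 113 CPM.

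The remaining classes hold too few cells or UMIs for more than a description. Ciliated cells had 0 mitotic and 0 S-phase cells of 121 in saline at a median of 5313 UMIs, which by 3 counts allows up to 2.48% (exact upper bound 3.0%), and an unthinned S-phase share of 3.31%. Smooth muscle cells had 0 of 102 in saline and 1 of 102 in bleomycin. The mitotic sum in bleomycin smooth muscle was 154 CPM with that cell and 13.3 [6.62 to 23.7] without it, below the 69.1 of bleomycin fibroblasts not in cycle. Alveolar type 2 cells of the saline library had 5 mitotic cells of 314, 1.59% [0.519 to 3.68]. In saline pericytes 2 of 50 cells were mitotic, and the mitotic sum was 1327 CPM with them and 21.4 [6.96 to 50.1] without them. In bleomycin pericytes 0 of 48 cells were mitotic and 1 was in S phase. Cluster 17, led by immunoglobulin and C1q genes, had 2 of 86 and 3 of 77 mitotic cells.

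**Figure D5:**
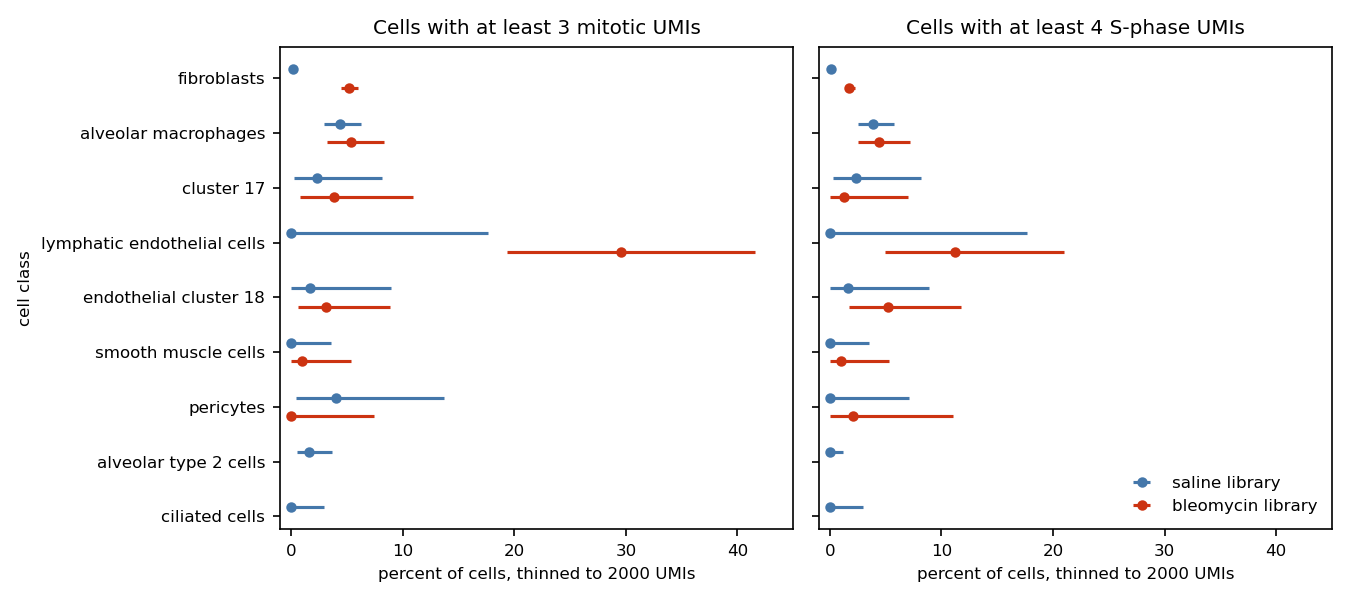
Percent of cells with at least 3 mitotic UMIs and at least 4 S-phase UMIs by cell class after thinning to 2000 UMIs, saline in blue and bleomycin in red, with exact 95% binomial intervals. Fibroblasts are at 0.141% and 5.18% mitotic cells, alveolar macrophages at 4.38% and 5.34%, and bleomycin lymphatic endothelial cells at 29.6%.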

How the data were processed

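Per the submitters' processing notes, the authors made the deposited tables, which hold whole-number counts of UMIs, with Cell Ranger 2.1.1 on mm10; the annotation release and cell-calling settings are not stated there. The members and gene lists were chosen with earlier results of these data known.

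Barcodes with at least 500 genes, 1000 UMIs and at most 10% mitochondrial UMIs were kept (23 saline and 5 bleomycin left out). Scrublet's automatic threshold marked 10 and 6 barcodes, under 0.5%, so the 238 and 160 with the highest scores (0.8% per 1000 barcodes) were left out as doublets. In scanpy 1.11.5, 2000 variable genes per library were taken, less the listed cell cycle genes and the histone genes. With 30 principal components, 15 neighbours and Leiden resolution 1 they gave 25 clusters. Clusters were named from marker lists by thresholds set after clusters were seen (3 markers in at least 25% of cells), leaving haemoglobin genes out of the leading genes; 2 stayed unnamed, and clusters 17 and 18, whose leading genes go against the name the markers gave, are called by number. The limit given for a count of 0 is 3 counts.

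UMIs were summed per class and library and divided by the class total, and log2 ratios used a prior of 1 CPM. Intervals are exact: Poisson for levels, conditional binomial for ratios, Clopper-Pearson for shares. Genes named are all members, the listed kinases, inhibitors, E2F and MuvB genes with 50 UMIs, the fibroblast genes, and up to 4 per further list by ratio. On simulated counts with Poisson error only, for fibroblasts, 200 of 200 genes changed 2.5-fold and 5 of 11429 unchanged genes were called. Alternatives covered thinning, minimums, filters, doublets, clustering, scaling and the size rule. Promoter sequences are from RefSeq, positions from the GENCODE annotation.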

Additional observations from a re-analysis of the deposited data

Results flagged for a closer look

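Rrm2 was called in opposite directions in 2 cell classes. Its log2 ratio of bleomycin over saline was 2.65 in fibroblasts and -1.0 in alveolar macrophages, the latter from 78 and 31 UMIs, a ratio of 0.481 [0.307 to 0.739]. The difference between the classes was not tested, and each group is 1 library.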

How the results depend on the processing

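The share of bleomycin fibroblasts in cycle depended on depth and on the minimum, and it was above the saline share for both sums in every alternative run. For bleomycin fibroblasts the mitotic share was 2.99% with cells thinned to 1000 UMIs, 6.38% at 4000 and 12.4% without thinning, and 6.58% and 4.27% with the minimum 1 UMI lower and higher. For saline fibroblasts it was 0.478% without thinning. The S-phase share of bleomycin fibroblasts was 0.37%, 4.98% and 32.8% at 1000, 4000 and no thinning, and 3.47% and 1.17% with the minimum 1 lower and higher. In saline fibroblasts it was 1.15% at 4000 UMIs, 5.85% without thinning, and 0.731% and 0.0281% with the minimum 1 lower and higher. At 4000 UMIs shallower cells were left out, which left 3218 of 3558 saline fibroblasts.

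In alveolar macrophages the order of the libraries turned in some alternatives. The mitotic shares in saline and bleomycin were 7.84% and 6.53% at 4000 UMIs and 4.23% and 4.15% with the minimum 1 higher. At 4000 UMIs shallower cells were left out, which left 357 of 639 saline and all 337 bleomycin macrophages. The S-phase shares were 1.25% and 1.19% at 1000 UMIs, 10.9% and 6.23% at 4000, 5.79% and 5.04% with the minimum 1 lower, 3.6% and 3.56% with another seed and 3.91% and 3.81% with each library clustered alone. Without thinning they were 9.55% and 10.4%. Bleomycin lymphatic endothelial cells had a mitotic share of 45.1% without thinning and S-phase shares of 23.9% at 4000 UMIs and 66.2% without thinning. Endothelial cluster 18 had S-phase shares of 0% at 1000 UMIs and 15% without thinning in saline, and 19.8% without thinning in bleomycin. In bleomycin smooth muscle cells the mitotic and S-phase shares were 0% and 0% with cell cycle genes kept in the clustering, and the S-phase share was 0% at 1000 UMIs.

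Of the members, 13 were higher and 0 lower in fibroblasts with 20 CPM required as well, and 16 were higher with thinned cells, where 26 were measured. A 3-fold rule gave 24 higher, per-cell means 27 and cell cycle genes kept in the clustering 31. Of all measured genes, 3.02% were higher and 4.72% lower with 20 CPM required, and 6.13% were higher with thinned cells. The 3-fold rule gave 6.04% of all genes higher, per-cell means 9.23% and cell cycle genes kept in the clustering 9.60%. With per-cell means 2 fibroblast genes were higher in cells in cycle. Within cluster 9, 2 fibroblast genes were higher and 2 lower in cells in cycle, against 1 and 10 over all clusters. Log2 ratios there that turned sign for a gene called in either were Postn -0.998, Inmt 1.58, Tcf21 0.52, Ces1d 1.75, Pi16 2.71 and C3 0.48. The cause was not tested. No paired analysis was possible because each treatment has 1 library.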

Other observations

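Genes outside all lists that differed most between bleomycin fibroblasts in cycle and not in cycle, over all clusters, were named after their values were seen, so they are a description. Among the highest ratios were those of Mxd3 (76 against 0.869 CPM), Depdc1a (47.3 against 0.36), Ska1, a spindle and kinetochore gene (55.3 against 0.615), and 2810417H13Rik (287 against 7.63). Cep55, which acts in the last step of cell division, was at 32.2 against 0.276, and Asf1b, a histone chaperone, at 70 against 1.8. Neil3, a DNA glycosylase, was at 31.4 against 0.36.

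Among the lowest ratios were those of the following genes. Cfd, encoding the complement protease adipsin, had 0 UMIs in the cells in cycle and 460 in the others. C6, a terminal complement component, had 3 against 499. Lrg1 was at 3.3 against 28.3 CPM, Gsta3 at 11.4 against 79.7 and Lbp, the lipopolysaccharide-binding protein, at 5.78 against 35.1. Gas6, a ligand of the TAM receptors, was at 46.1 [40.2 to 52.5] against 273 [268 to 278].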
